A study of Mus musculus with 30 samples.

Results

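Klhl13, Dusp9 and Nr0b1 are 3 X-linked genes that are used in pluripotent cells, chosen by name, and they were 3 of the 55421 genes in the count table. All 3 are protein-coding and passed the filter on low values (a mean over 1 TPM, a count scaled to transcript length and library depth, in the reference line XX Rnf12+/-), as did 16493 genes in all, 677 of them X-linked. On GRCm38, Klhl13 (ENSMUSG00000036782) lies on the minus strand at chrX:23219271-23365082, Dusp9 (ENSMUSG00000031383) on the plus strand at chrX:73639419-73643514, and Nr0b1 (ENSMUSG00000025056) on the plus strand at chrX:86191764-86195947. Bulk RNA-seq was measured in 30 libraries of female mouse embryonic stem cells (mESCs) from a cross of the strains 129/Sv and Cast/Ei, so that reads over strain differences could be assigned to the 129 or the Cast copy of a gene. The wild type, Rnf12+/- and monosomic lines had 2 libraries each. They were XX wild type cells, XX Rnf12+/- cells, XCastO129 cells, which lost the 129 X chromosome, and X129OCast cells, which lost the Cast X chromosome. The other 22 libraries came from 13 lines, named A to K with the combined deletions AB and C-G and the deletion I-TEL, each lacking a large piece of 1 X chromosome.

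The deletions were made with CRISPR-Cas9 on the 129 X chromosome of XX Rnf12+/- cells, in which the 129 copy of Rnf12 (Rlim), a ubiquitin ligase that activates Xist, had been deleted before. All deletion lines and X129OCast therefore carry the 129 Rnf12 deletion, and the deletion lines also keep the selection cassette that marks the deleted piece. Lines A, B, AB and C-G are 1 clone each, and the other 9 lines are 2 clones each. I-TEL and J were made from a second Rnf12+/- line, which was not measured here. Klhl13 lies inside deletions B, AB and C-G, Dusp9 inside E and C-G, and Nr0b1 inside F and C-G, so that each line of these keeps only the Cast copy. The question put to the 3 genes was whether the copy that remains gives more RNA when the other is gone.

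DUSP9 is a dual-specificity phosphatase that removes the activating phosphates from ERK kinases, and ERK signalling drives mESCs out of the naive state. KLHL13 is a Kelch-repeat adaptor that brings substrates to the CUL3 ubiquitin ligase. NR0B1 (DAX1) is an orphan nuclear receptor without a classical DNA-binding domain, which acts mostly as a corepressor within the pluripotency network, together with OCT4, ESRRB and NR5A2. Female mESCs have both X chromosomes active, so a gene on the X is read from both copies until X inactivation begins, and the dose of genes such as Dusp9 and Klhl13 has been linked to the lower ERK signalling output of XX cells.

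The promoters of Klhl13 and Nr0b1 are shown because Klhl13 differed most between the 2 alleles and Nr0b1 in the most lines. RefSeq gave 5 windows for Klhl13, of which 2 held none of the motifs searched, 1 for Nr0b1 and none for Dusp9, and the Klhl13 window that starts farthest upstream is shown. Each sequence is a window of 300 bases around a RefSeq start on GRCm38.p6, that of Klhl13 at chrX:23365033-23365332 on the minus strand and that of Nr0b1 at chrX:86191525-86191824 on the plus strand. They are the reference genome's letters, not those of 129/Sv or Cast/Ei. Capitals mark the TATA box TATAAA, the GC box GGGCGG, which reads CCGCCC on the other strand, and AGGTCA, a core motif of nuclear receptor sites, and each was searched for on both strands.
Klhl13 promoter: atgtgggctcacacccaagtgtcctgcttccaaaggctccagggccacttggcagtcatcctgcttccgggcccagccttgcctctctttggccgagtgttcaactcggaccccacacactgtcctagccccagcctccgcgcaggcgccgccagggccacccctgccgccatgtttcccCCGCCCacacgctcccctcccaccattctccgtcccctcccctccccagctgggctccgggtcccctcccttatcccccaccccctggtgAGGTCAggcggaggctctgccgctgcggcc
Nr0b1 promoter: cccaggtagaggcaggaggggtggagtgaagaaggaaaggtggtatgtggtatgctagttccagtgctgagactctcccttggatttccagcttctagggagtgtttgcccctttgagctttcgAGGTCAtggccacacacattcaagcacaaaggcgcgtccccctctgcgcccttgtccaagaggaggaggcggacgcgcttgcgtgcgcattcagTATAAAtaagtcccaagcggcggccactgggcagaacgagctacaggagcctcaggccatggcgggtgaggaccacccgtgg
The Klhl13 window shown held GGGCGG and AGGTCA, the Nr0b1 window AGGTCA and TATAAA. Over 32851 promoters of this length, 35.7% held GGGCGG, 16.3% AGGTCA and 13.6% TATAAA.

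The libraries fell into 3 series by their names. A series of 6, with deletion E, XX Rnf12+/- and XX wild type, had 20375194 to 21181405 counts each, the other deletion lines formed a series of 20 with 8816184 to 10680026, and the 4 XO libraries had 14998265 to 16494893. Only the XO libraries were sequenced from 1 end of each fragment (single reads), so the effects of read type and series cannot be told apart from that of losing an X. Rlim stood at 211 and 193 TPM in XX wild type, 77.6 and 79.7 in XX Rnf12+/-, and 3.53 in both X129OCast libraries, as the genotypes require. The summed level of 5 mESC markers was between 3882 and 5362 TPM in all libraries. It was 3882 to 3970 in X129OCast and 4318 to 4496 in XCastO129. In XX wild type it was 4869 to 5280, in XX Rnf12+/- 5240 to 5357 and in the deletion lines 4040 to 5362. The cells grew on feeder fibroblasts, and the summed level of 10 fibroblast markers ranged from 92.9 to 837 TPM. It was 620 and 154 TPM in XX wild type, 823 and 152 in XX Rnf12+/-, and 562 and 837 in deletion E. Bulk samples cannot tell fewer cells of a type from less RNA per cell.

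Klhl13 was the most abundant of the 3 genes in most libraries and varied most between them. In the 23 libraries that keep 2 copies its level ran from 234 TPM in 1 library of deletion I to 1533 TPM in 1 library of XX wild type, with a median of 840. Nr0b1 ran from 262 TPM in deletion J to 712 TPM in deletion H, with a median of 504. Dusp9 ran from 126 TPM in I-TEL to 374 TPM in XX wild type, with a median of 197.

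The order of the conditions differed from gene to gene. Klhl13 was highest in XX wild type, at 1533 and 1187 TPM, and deletion E, at 1274 and 1287, which overlapped each other. It was lowest in X129OCast, at 61.2 and 58.8 TPM, with a gap to the next condition, deletion I, whose 2 clones differed widely at 234 and 518. Most neighbours in between overlapped, and from deletion K at 764 TPM down to C-G at 619 no step between neighbours was larger than the spread of their libraries.

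Dusp9 was highest in deletion A, a single clone at 329 TPM, and lowest in C-G, a single clone at 98.6 TPM, with XCastO129 next at 144 and 93.1. Its 2 libraries of XX wild type stood at 374 and 197 TPM, and those of XX Rnf12+/- at 347 and 168. Within each of these 2 groups the library with the higher Dusp9 level was also the one with the higher fibroblast markers, and the part of the fibroblasts in this was not tested. The libraries of I-TEL, XCastO129 and C-G all lay below the range of these 4, as did 1 library each of deletions H and K, and the libraries of the other conditions lay within it.

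Nr0b1 was highest in deletions H, at 645 and 712 TPM, and C, at 650 and 698, which overlapped. XX Rnf12+/- followed at 574 and 579 TPM, with deletions K, E and I close by, and XX wild type stood lower at 412 and 310. The lowest levels were those of X129OCast, at 230 and 252 TPM, below deletion J at 262 and 268 without overlap.

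**Figure D1:**
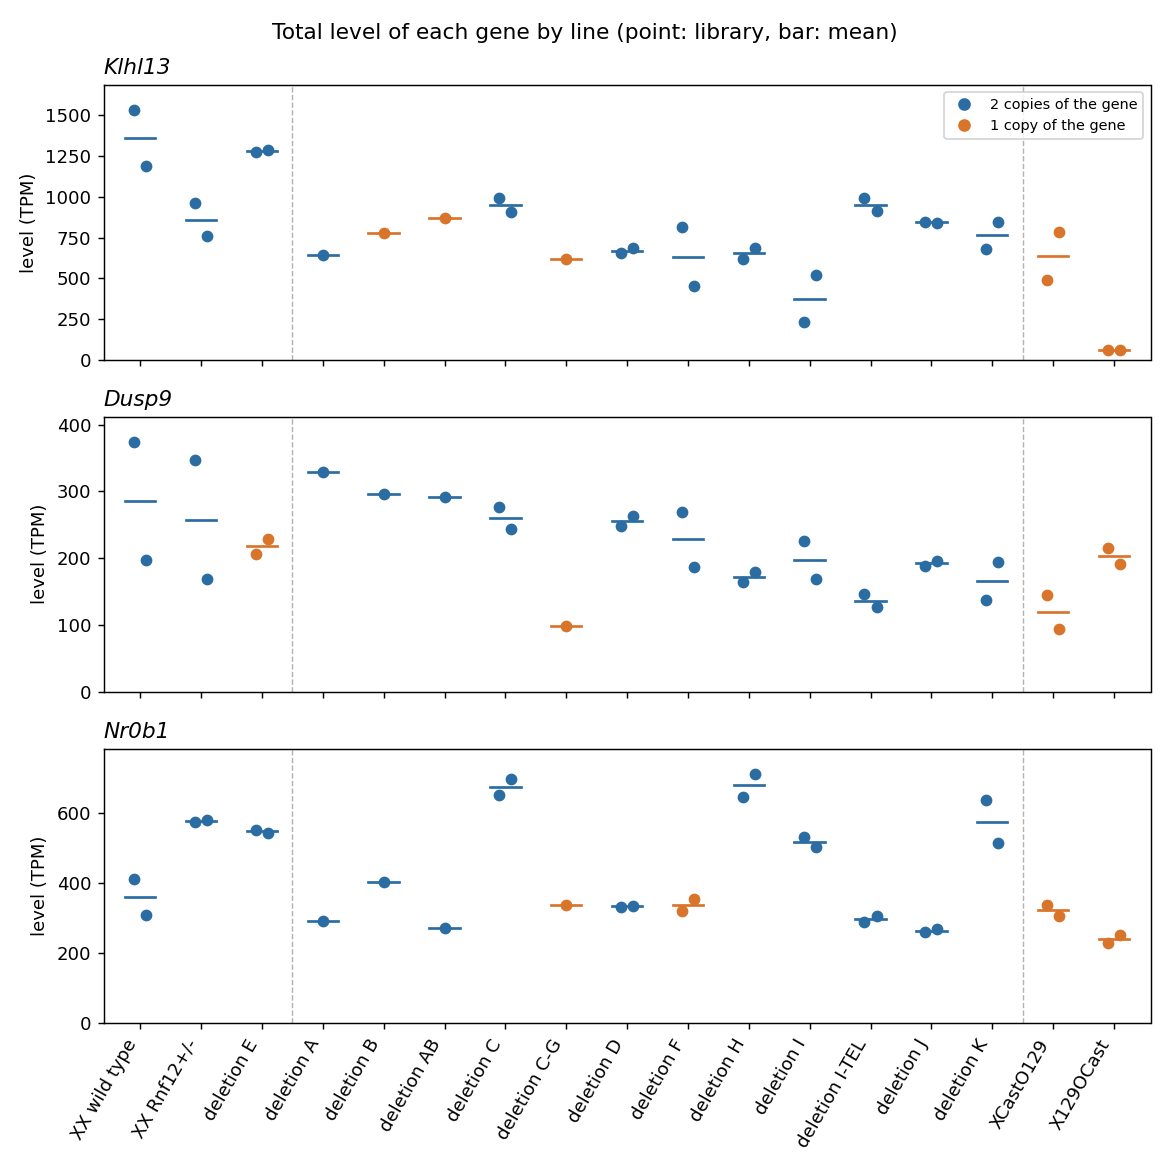
TPM of Klhl13, Dusp9 and Nr0b1 (vertical axes) in each of the 30 libraries, grouped by condition along the horizontal axis; blue points keep 2 copies of the gene, orange points 1, and dashed lines separate the 3 library series. Klhl13 in X129OCast (61.2 and 58.8 TPM) lies far below all other points and Nr0b1 spans 262 to 712 TPM among the libraries that keep both copies.

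The 2 alleles were not used equally. In the 23 libraries with 2 copies, the Cast allele gave 70.7% to 84.1% of the allelic Klhl13 reads (median 77.3%), 48.8% to 63.5% of those of Nr0b1 (median 58.1%) and 34.1% to 61.4% of those of Dusp9 (median 43.0%). Autosomal reads were 46.0% to 50.2% Cast in all libraries. Klhl13 was therefore read mostly from the Cast copy in every library that had both, and its lowest Cast share lay above the highest of Nr0b1 and of Dusp9.

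The Cast share of Klhl13 was lowest in XX wild type, at 70.7% and 72.0%, against 78.4% and 78.8% in XX Rnf12+/-. The Cast share of Nr0b1 was 60.3% and 63.0% in XX Rnf12+/- but only 49.3% and 48.8% in deletion C. In deletion C the 129 copy of Nr0b1 gave 614 and 666 allelic CPM (counts scaled to the autosomal counts of that allele), against 426 and 420 in XX Rnf12+/-, while the Cast copy gave 636 and 672 against 758 and 758. Relative to XX Rnf12+/- deletion C thus had a higher 129 level and a lower Cast level, and its total was not called. Among the libraries of its own series that keep both copies, its Cast level lay near the top of the range of 273 to 689 allelic CPM (median 414), and its 129 level near or at the top of 181 to 666 (median 318).

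Reads of the deleted copies were at or near 0. In C-G, 0 of 299 allelic Klhl13 reads were 129, which allows a share of up to 1.00%, and in deletion E 0 of 147 and 0 of 137 allelic Dusp9 reads were, which allows up to 2.04% and 2.19%. These limits cover counting error only. The paper drew the deletion borders from allele-specific RNA-seq, so the absence of 129 reads is no separate check that C-G covers Klhl13. The depth behind the alleles differed between genes. Allelic reads were 2.82% to 4.20% of all Klhl13 reads in the paired-read libraries, 3.26% to 5.62% of Dusp9 reads and 18.3% to 21.7% of Nr0b1 reads, so the allelic values of Nr0b1 rest on the most reads.

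**Figure D2:**
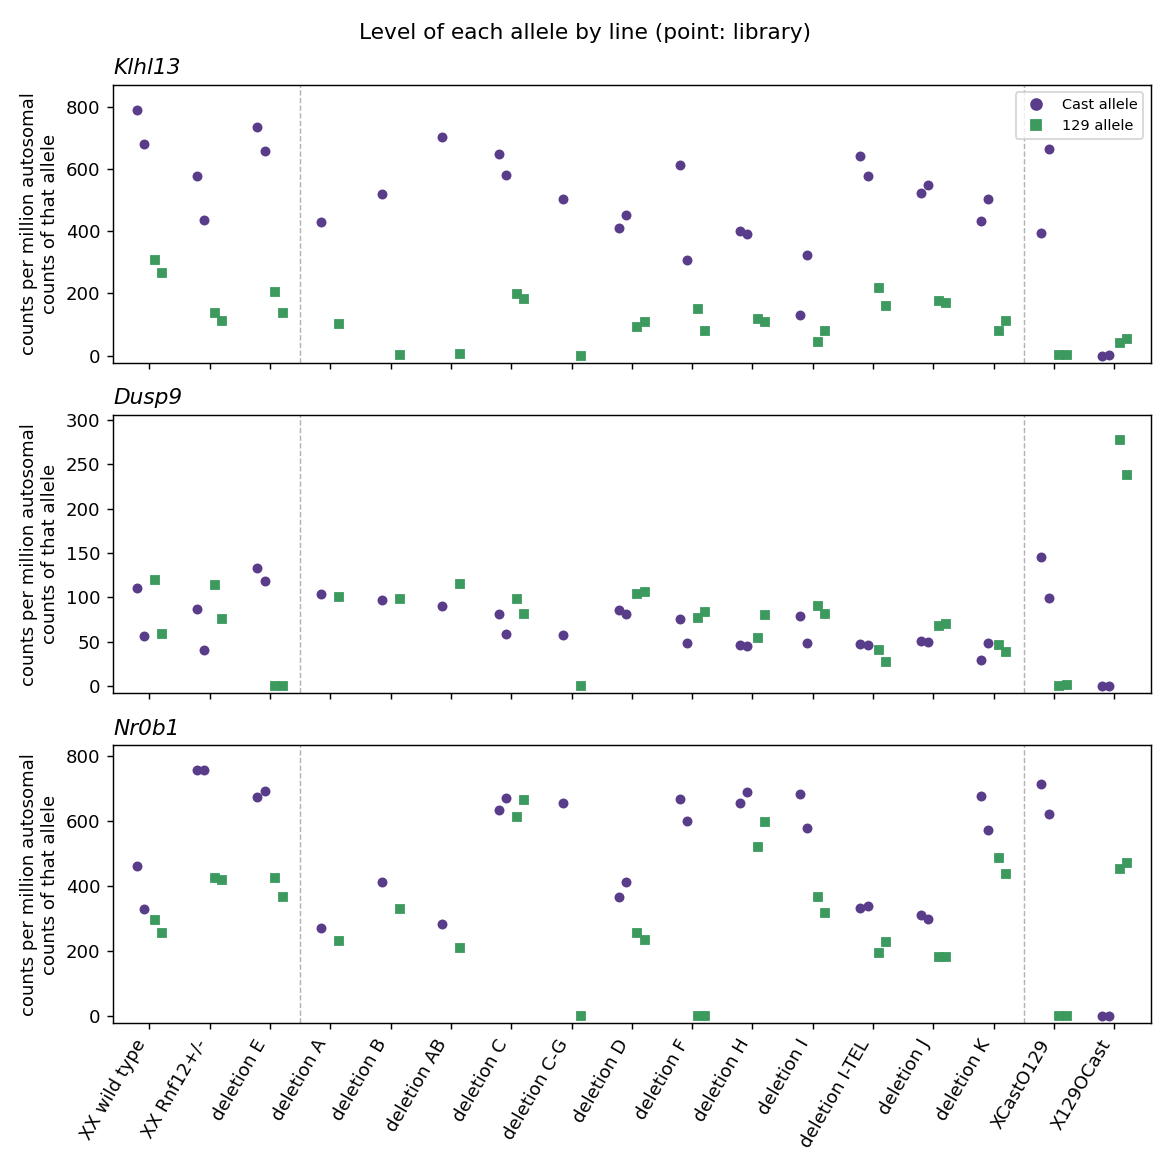
Allelic CPM (counts scaled to the autosomal counts of that allele) for the Cast and the 129 copy of each gene (vertical axes), by library and condition (horizontal axis), with dashed lines between the 3 library series. The Cast copy of Klhl13 lies above its 129 copy wherever both are present, and the 129 copy of Dusp9 is highest in X129OCast (278 and 238).

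XX Rnf12+/- was compared with XX wild type to see how the 3 genes differed between them. The Rnf12+/- cells are an edited, drug-selected line. The loss of 1 Rnf12 copy cannot be told apart from other differences of that line. Klhl13 stood at 960 and 757 TPM in XX Rnf12+/- cells and at 1533 and 1187 in wild type cells. Nr0b1 stood at 574 and 579 TPM against 412 and 310. For both genes the groups did not overlap, with Klhl13 lower and Nr0b1 higher in XX Rnf12+/-, whereas Dusp9 overlapped.

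On these 4 libraries 0 of the 3 genes passed edgeR's quasi-likelihood test with Benjamini-Hochberg adjustment at 0.05, where 0.00606% of all genes did. At an unadjusted p under 0.05 there were 2 of 3, against 8.1% of all genes, and DESeq2 called 1 of 3, against 1.46%. The log2 difference was 0.71 (SE 0.15, adjusted p = 0.394) for Nr0b1, -0.63 (SE 0.18, adjusted p = 0.484) for Klhl13 and -0.12 (SE 0.45, adjusted p = 0.985) for Dusp9. Nr0b1 was called by DESeq2 (0.71, adjusted p = 0.00942) and by edgeR when all 30 libraries were fitted together (0.70, adjusted p = 0.00158), a fit in which 2.65% of genes were called.

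Both copies of Nr0b1 had higher values in XX Rnf12+/- without overlap. Its Cast copy gave 758 and 758 allelic CPM against 463 and 331, a log2 difference of 0.92 (SE 0.14, adjusted p = 5.85e-05), where 2.89% of genes were called. Its 129 copy gave 426 and 420 against 296 and 257, a log2 difference of 0.64 (SE 0.12, adjusted p = 0.0345), where 1.84% of genes were called. The call of the 129 copy was lost in 6 of 6 fits that left out 1 library, at values from 0.54 to 0.76 and adjusted p from 0.0515 to 0.212.

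Klhl13 differed between its copies in size. Its 129 copy gave 136 and 110 allelic CPM in XX Rnf12+/- and 308 and 267 in wild type cells, without overlap, and the log2 difference was -1.19 (SE 0.18, adjusted p = 0.013). Its Cast copy gave 577 and 435 against 791 and 679, again without overlap, and the log2 difference was -0.56 (SE 0.26, adjusted p = 0.444), which was not called. The difference between these 2 differences was not tested. The 129-allele calls of Klhl13 and Nr0b1 were lost when only these 4 libraries were fitted, at adjusted p = 0.0677 and 0.155. That of Klhl13 was also lost in 4 of 6 fits that left out 1 library, without either library of XX wild type or of X129OCast, at adjusted p from 0.0642 to 0.0775 and a log2 difference between -1.29 and -1.07.

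The XO lines ask what happens to the 3 genes when a whole X chromosome is missing. Levels were divided by the number of copies, so that 1 copy in an XO line was set against the mean of the 2 copies in XX Rnf12+/-. Loss of the Cast X chromosome left very little Klhl13 RNA, whereas loss of the 129 X chromosome did not. The other 2 genes differed far less between the XO lines. The XO lines also differ in Rnf12. X129OCast keeps only the 129 X chromosome with the deleted copy, at 3.53 TPM of Rlim, whereas XCastO129 keeps the intact Cast copy, at 71.2 and 77.8 TPM. Which X chromosome was lost and the loss of the last Rnf12 copy cannot be told apart.

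Klhl13 stood at 488 and 783 TPM in XCastO129 and at 61.2 and 58.8 in X129OCast, against 480.1 and 378 TPM per copy in XX Rnf12+/-. The X129OCast libraries lay below all others, and the XCastO129 libraries above those of XX Rnf12+/- per copy. Per copy, X129OCast was lower by a log2 of -2.73 (SE 0.30, adjusted p = 6.46e-07), that is 6.63-fold, where 46.7% of all genes were called. XCastO129 differed by 0.63 (SE 0.27, adjusted p = 0.0819), where 34.9% were called. This value rested on the reference: against XX wild type it was -0.0075.

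Set directly against each other, both XO lines being read the same way, X129OCast was lower than XCastO129 in Klhl13 by a log2 of -3.36 (SE 0.30, adjusted p = 3.32e-06), that is 10.3-fold, where 6.47% of genes were called. Against XX Rnf12+/-, 463 of 476 protein-coding X-linked genes with 1 copy had a higher per copy log2 difference than Klhl13 in X129OCast. The 129 copy of Klhl13 was the weaker one in XX cells too, yet in X129OCast it gave 39.3 and 51.9 allelic CPM against 136 and 110 in XX Rnf12+/-. This fall of the 129 copy was a log2 of -1.35 (SE 0.19, adjusted p = 0.00159), where 31.9% of genes were called. In XCastO129 the Cast copy of Klhl13 gave 395 and 666 allelic CPM against 577 and 435, with overlap, and a log2 difference of 0.12 (SE 0.26, adjusted p = 0.779).

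Dusp9 stood at 144 and 93.1 TPM in XCastO129 and at 215 and 191 in X129OCast, against 174 and 84.0 TPM per copy in XX Rnf12+/-. X129OCast lay above both other groups, and XCastO129 overlapped XX Rnf12+/-. The per copy log2 difference was 0.77 (SE 0.30, adjusted p = 0.0437) for X129OCast and -0.049 (SE 0.30, adjusted p = 0.913) for XCastO129. The call for X129OCast was lost in 10 of 26 fits that left out 1 library, with only the groups compared (adjusted p = 0.142) and against XX wild type (0.64, adjusted p = 0.0847), and the value fell to 0.34 without XX Rnf12+/- replicate 2. Between the XO lines the log2 difference was 0.82 (SE 0.30, adjusted p = 0.118).

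In the total RNA of the cell, Dusp9 was lower in XCastO129 than in XX Rnf12+/- by a log2 of -1.05 (SE 0.30, adjusted p = 0.0113), where 36.4% of genes were called, and differed in X129OCast by -0.23 (SE 0.30, adjusted p = 0.545). Without XX Rnf12+/- replicate 1 the value for XCastO129 was -0.43 and was not called. It was also not called without XCastO129 replicate 2 (-0.76) or with only these groups in the fit (-1.06, adjusted p = 0.163).

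The alleles of Dusp9 gave higher values than its total. Its Cast copy gave 145 and 99.6 allelic CPM in XCastO129 against 87.0 and 41.0 in XX Rnf12+/-, without overlap, and a log2 difference of 1.00 (SE 0.30, adjusted p = 0.0152), where 27.7% of genes were called. Its 129 copy gave 278 and 238 in X129OCast against 113 and 74.9, also without overlap, and a log2 difference of 1.54 (SE 0.30, adjusted p = 0.00609), a call lost without X129OCast replicate 1 (1.43, adjusted p = 0.0619). The share of Dusp9 reads that could be assigned to an allele was 12.4% to 16.4% in the single-read XO libraries and 3.26% to 5.62% in the paired-read ones, a larger rise than that of all reads, of which at most 12.7% were allelic in paired-read libraries and 21.9% to 22.0% in single-read ones. The part of the read type in the allelic values of Dusp9 was not tested. The Cast value of Dusp9 in XCastO129 fell to 0.57 without XX Rnf12+/- replicate 2 and to 0.69 without XCastO129 replicate 1, and was then not called. It was not called by DESeq2 (1.02, adjusted p = 0.0521), with only the groups compared (1.03, adjusted p = 0.102) or against XX wild type (0.59, adjusted p = 0.122) either.

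Nr0b1 stood at 339 and 306 TPM in XCastO129 and at 230 and 252 in X129OCast, against 287 and 290 TPM per copy in XX Rnf12+/-. Per copy, neither XO line overlapped XX Rnf12+/-, XCastO129 lying above it and X129OCast below. The single alleles lay the other way, again without overlap. The Cast copy gave 715 and 622 allelic CPM in XCastO129 against 758 and 758 in XX Rnf12+/-. The 129 copy gave 454 and 472 in X129OCast against 426 and 420. Neither was called, where 27.7% and 31.9% of genes were. The Cast share in XX Rnf12+/- was 60.3% and 63.0%, so dividing by 2 set each remaining copy against a mean of unequal copies. The per copy log2 differences were small, 0.23 (SE 0.11, adjusted p = 0.123) for XCastO129 and -0.15 (SE 0.11, adjusted p = 0.295) for X129OCast. In total RNA, with 1 copy against 2, Nr0b1 was lower by a log2 of -0.77 (adjusted p = 3.12e-05) in XCastO129 and of -1.15 (adjusted p = 1.8e-07) in X129OCast, where 36.4% and 47.6% of all genes were called. Against XX wild type the total value in XCastO129 was -0.070 and no longer a call (adjusted p = 0.657), and that in X129OCast was -0.45 (adjusted p = 0.00305).

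The per copy value of Nr0b1 depended on which XX line stood as the reference. Against XX wild type, whose Nr0b1 level was lower, the per copy log2 difference was 0.93 (adjusted p = 4.25e-06) in XCastO129 and 0.55 (adjusted p = 0.000576) in X129OCast, where 37.5% and 48.1% of genes were called. Between the XO lines it was -0.38 (SE 0.11, adjusted p = 0.0527), just outside the threshold, and 4 of the alternative settings put it inside.

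The deletion lines ask the same of a smaller missing piece. Each line that lacks the 129 copy of a gene was set against the lines of the same library series whose deletions do not overlap its own, or, for deletion E, against XX Rnf12+/-. There were 7 such pairs of a line and a gene. Per copy 4 of the 7 were called, where 0.582% (B), 3.46% (AB), 1.25% (C-G), 5.04% (F) and 0.127% (E) of genes were, and all 7 values were above 0, while in total RNA 0 of the 7 were called by edgeR, where 0.849% (B), 4.12% (AB), 2.57% (C-G), 5.63% (F) and 0.606% (E) of genes were. On the Cast copy alone 1 of the 7 was called and 6 were above 0, where 0.0278% (B), 0.791% (AB), 0.125% (C-G and E) and 2.39% (F) of genes were called.

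Klhl13 in deletion B, 1 clone, stood at 775 TPM, against 117 to 497 TPM per copy (median 344) in 17 libraries of 9 other lines. The B library lay above all of them per copy, and within the range of their total levels, 234 to 994 TPM. The per copy log2 difference was 1.12 (SE 0.25, adjusted p = 0.0477), where 0.582% of all genes were called, and that of the total was 0.12 (SE 0.28, adjusted p = 0.911). The per copy call was lost in 15 of 26 fits that left out 1 library, with values from 1.08 to 1.19. The spread of a line with 1 clone was taken from the other conditions.

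Klhl13 in deletion AB, also 1 clone, stood at 872 TPM and gave a per copy log2 difference of 1.30 (SE 0.25, adjusted p = 0.00635), where 3.46% of genes were called. In C-G, with 619 TPM in 1 clone, it was 0.87 (SE 0.27, adjusted p = 0.119), where 1.25% were called. Both libraries lay above all of their reference libraries per copy. These log2 differences were also set beside those of the protein-coding X-linked genes that each deletion left with 1 copy. None of 26 in B had a higher one than Klhl13, 2 of 82 did in AB and 11 of 226 in C-G.

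The Cast copy itself showed less of this. Klhl13 gave 519 allelic CPM from the Cast copy in B, 705 in AB and 502 in C-G, against 132 to 648 (median 452) in the 17 libraries of the series that keep both copies. Only AB lay above that range. The log2 differences of the Cast copy were 0.22 (SE 0.28, adjusted p = 0.85) in B, 0.64 (SE 0.27, adjusted p = 0.339) in AB and 0.21 (SE 0.29, adjusted p = 0.899) in C-G. Since the Cast copy gave a median of 77.3% of the Klhl13 reads where both copies were present, dividing the total by 2 set the remaining Cast copy against a value below its own usual level. With XX Rnf12+/- as the reference, the per copy values were 0.74 in B, 0.93 in AB and 0.44 in C-G, and none was called (adjusted p = 0.121, 0.0667 and 0.404), where 19.1%, 12.7% and 9.58% of genes were.

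Dusp9 in deletion E stood at 207 and 228 TPM, against 174 and 84.0 TPM per copy and 347 and 168 TPM in total in XX Rnf12+/-. Per copy the E libraries lay above both reference libraries, and in total between them. The per copy log2 difference was 0.70 (SE 0.30, adjusted p = 0.395), where 0.127% of genes were called, and that of the Cast copy, 133 and 119 allelic CPM against 87.0 and 41.0, was 0.95 (SE 0.31, adjusted p = 0.287). Without XX Rnf12+/- replicate 1 the per copy value rose to 1.29 and was called (adjusted p = 0.04), as was that of the Cast copy (1.62, adjusted p = 0.0422). The fibroblast markers were at 562 and 837 TPM in deletion E and at 823 and 152 in XX Rnf12+/-, and their part in these values was not tested.

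Dusp9 in C-G, 1 clone, stood at 98.6 TPM, within the 63.0 to 164 TPM per copy of its 9 reference libraries. Its per copy log2 difference was 0.026 (SE 0.33, 95% interval -0.67 to 0.72), and 114 of the 226 X-linked genes left with 1 copy had a higher log2 difference. In total RNA it was lower by a log2 of -0.97 (SE 0.36, adjusted p = 0.171) against those lines and by -1.47 (SE 0.40, adjusted p = 0.0256) against XX Rnf12+/-, where 10.7% of genes were called. The latter call was lost without XX Rnf12+/- replicate 1 (-0.88, adjusted p = 0.191) and with only the groups compared (adjusted p = 0.488). Only 34 allelic Dusp9 reads lay behind its Cast copy in C-G.

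Nr0b1 in deletion F stood at 321 and 355 TPM, against 131 to 356 TPM per copy (median 201) in 17 libraries of 10 other lines. Per copy the F libraries lay at the upper end of that range and overlapped it, the highest reference library being one of deletion H. The per copy log2 difference was 0.79 (SE 0.08, adjusted p = 2.77e-05), where 5.04% of genes were called. That of the Cast copy, 668 and 601 allelic CPM, was 0.58 (SE 0.11, adjusted p = 0.00343), and the Cast call was lost without deletion F replicate 1 (0.49, adjusted p = 0.0562). No gene among the 19 X-linked protein-coding genes that F left with 1 copy had a higher per copy log2 difference than Nr0b1.

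Nr0b1 in C-G, 1 clone, stood at 339 TPM, above the 131 to 318 TPM per copy of its 9 reference libraries. The per copy log2 difference was 0.89 (SE 0.11, adjusted p = 0.000431). Its reference lines were A, I, I-TEL, J and K. Over the alternative settings, which include leaving out J and I-TEL, the value ran from 0.61 to 0.89. The Cast copy gave 657 allelic CPM and a log2 difference of 0.68 (SE 0.15, adjusted p = 0.0503).

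Here too the reference mattered. XX Rnf12+/- has more Nr0b1 than most deletion lines, and against it the per copy log2 difference was 0.18 (SE 0.11, adjusted p = 0.297) in F and 0.15 (SE 0.14, adjusted p = 0.513) in C-G, where 13.6% and 9.58% of genes were called. Total Nr0b1 was lower than in XX Rnf12+/- by a log2 of -0.82 (adjusted p = 0.000188) in F and of -0.85 (adjusted p = 0.00111) in C-G, where 13.6% and 10.7% of genes were called. Both calls were lost with only the groups compared (adjusted p = 0.156 and 0.483) and against XX wild type (-0.12, adjusted p = 0.518, in F and -0.15, adjusted p = 0.503, in C-G). The Cast copy of Nr0b1 differed from that in XX Rnf12+/- by -0.29 (adjusted p = 0.238) in F and -0.27 (adjusted p = 0.423) in C-G, where 6.03% and 2.97% of genes were called.

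**Figure D3:**
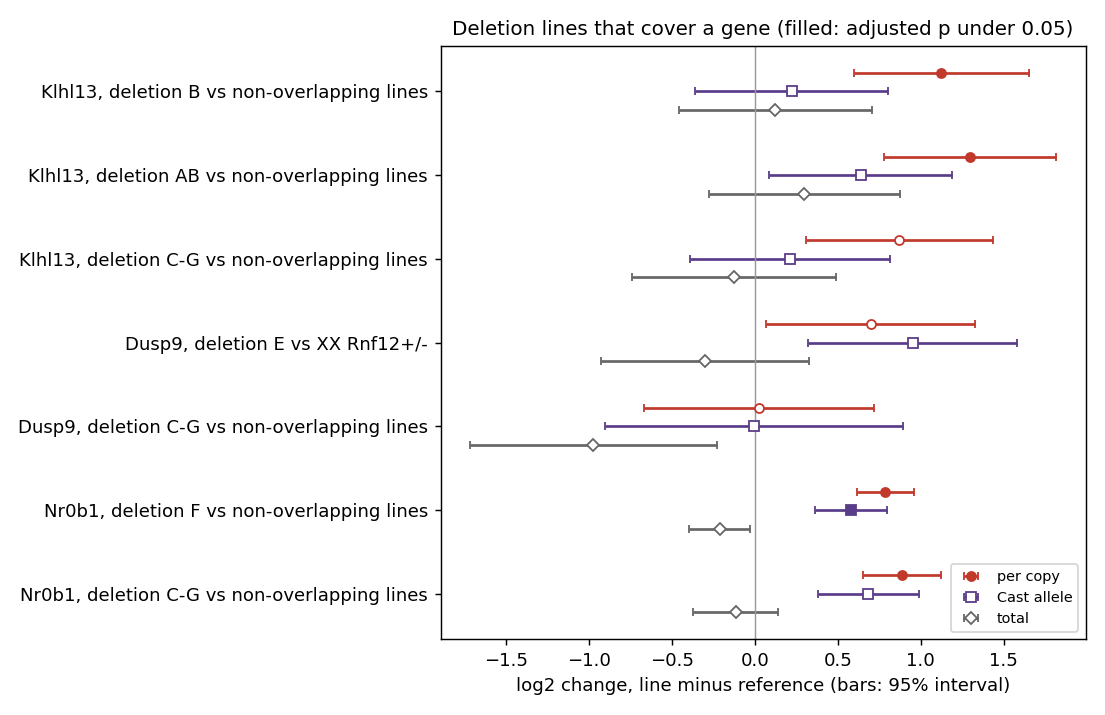
Log2 difference per copy, in total RNA and of the Cast copy (horizontal axis), for each line that lacks 1 copy of a gene and its reference; bars are 95% intervals and filled points passed an adjusted p of 0.05. The per copy values of Klhl13 in B and AB and of Nr0b1 in F and C-G against non-overlapping lines are filled, and no total value against those lines is.

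Lines whose deletions lie elsewhere keep both copies and show how far the 3 genes move without any change in their own dose. Each such line of the series of 20 was set against the other lines of that series that neither overlap its deletion nor cover the gene. Nr0b1 was called in 9 of 10 lines, where 11.2% of tests over all genes and these lines were called. Klhl13 was called in 1 of 9 lines, where 12.5% were, and Dusp9 in 1 of 11, where 10.5% were. The lines serve as references for each other, so these counts are not independent.

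Nr0b1 was higher in deletions C (log2 difference 0.82, SE 0.08, adjusted p = 4.61e-07), H (0.85, SE 0.08, adjusted p = 5.32e-06), K (0.54, SE 0.08, adjusted p = 0.00292) and I (0.38, SE 0.08, adjusted p = 0.00905). It was lower in deletions J (-0.76, SE 0.09, adjusted p = 1.28e-05), AB (-0.73, SE 0.13, adjusted p = 0.00308), A (-0.61, SE 0.13, adjusted p = 0.0106), I-TEL (-0.51, SE 0.09, adjusted p = 0.000731) and D (-0.28, SE 0.09, adjusted p = 0.0446). Deletion B alone was not called (-0.10, adjusted p = 0.785). These differences, between -0.76 and 0.85, were as large as the per copy values in the lines that lack a copy. Leaving out 1 library at a time left 8 or 9 of the lines called.

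Against XX Rnf12+/-, 6 of 11 lines had less Nr0b1 and none had more, where 16.2% of tests over all genes were called. The 6 were A, AB, B, D, I-TEL and J. Against XX wild type 5 of the 11 had more and 3 had less. Of 16493 genes, 826 (deletion E) to 5617 (deletion C) were called against XX wild type in these lines. I-TEL and J come from the second Rnf12+/- line, and that origin cannot be told apart from their deletions. Across the 26 paired-read libraries the level of Nr0b1, centred within each library series, had a Pearson correlation of -0.52 with the summed fibroblast markers, against 0.48 for Dusp9 and 0.25 for Klhl13. These correlations describe libraries that share lines and clones, and the part of the fibroblasts was not tested.

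Klhl13 was lower in deletion I, at 234 and 518 TPM, by a log2 of -0.95 (SE 0.23, adjusted p = 0.018) against the other lines and of -1.26 (adjusted p = 0.00998) against XX Rnf12+/-, where 9.95% of genes were called. The call against XX Rnf12+/- was lost without deletion I replicate 1 or XX Rnf12+/- replicate 1. Dusp9 was lower in I-TEL, at 147 and 126 TPM, by -0.97 (SE 0.25, adjusted p = 0.0114) against the other lines, and this call was lost without either I-TEL replicate. The values of the other lines ran from -0.15 to 0.50 for Klhl13 and from -0.54 to 0.66 for Dusp9, without a call.

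**Figure D4:**
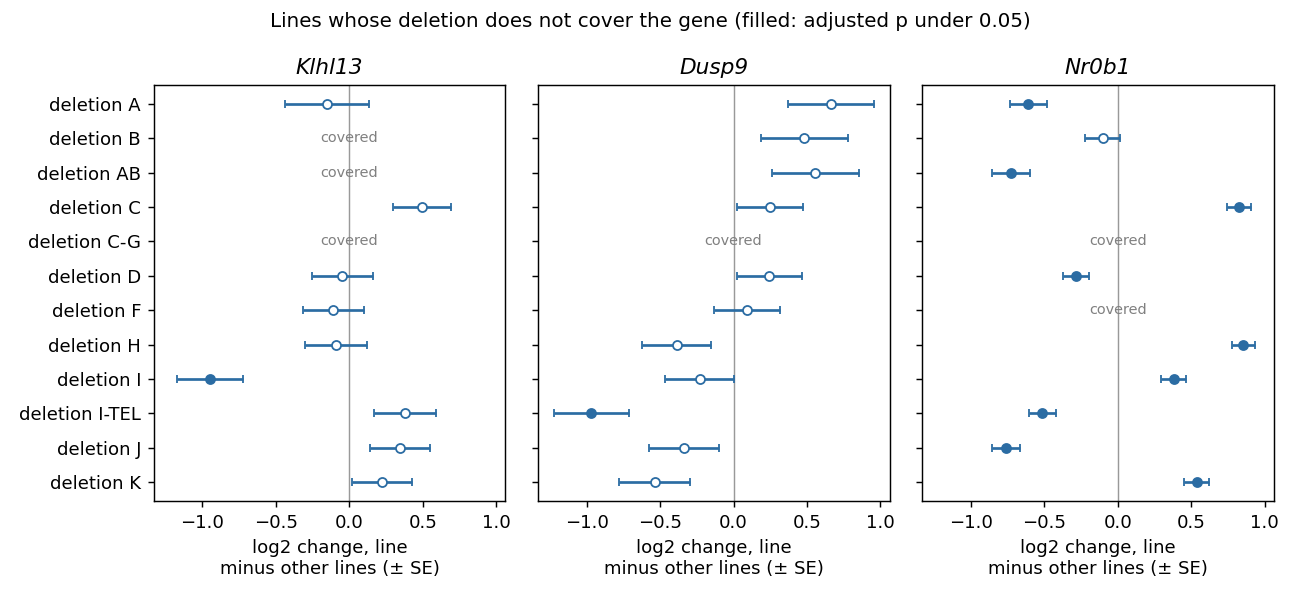
Log2 difference (horizontal axis) of each gene in the lines that keep both of its copies, against other lines of the same library series; points are fitted values, bars ± 1 standard error, and filled points passed an adjusted p of 0.05. Nr0b1 runs from -0.76 in J to 0.85 in H, and B is its only open point.

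The 3 genes did not move together. Over the 26 paired-read libraries, centred within library series and per copy, the Pearson correlation was 0.24 between Klhl13 and Dusp9, -0.29 between Klhl13 and Nr0b1 and 0.014 between Dusp9 and Nr0b1. Among 10144 protein-coding genes, the patterns most like that of Nr0b1 were those of Fbxo33, an F-box protein (0.89), Klf9, a Krüppel-like transcription factor (0.88), and Tnrc6b, a partner of Argonaute proteins in gene silencing by miRNAs (0.88). For Dusp9 they were Gca, a calcium-binding protein (0.82), Alox5ap, which is needed for leukotriene synthesis (0.82), and Ramp3, a receptor activity-modifying protein (0.82). For Klhl13 they were Tex2 (0.82), Diaph1, a formin that nucleates actin filaments (0.74), and Ehd1, a protein of endosome recycling (0.72). All these are descriptions over libraries that share lines.

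The nearest expressed protein-coding gene on each side of each member was not called in the lines that lack a copy of both. Zfp182 and Wdr44 lie 2157 and 328 kb from Klhl13, and Bgn and Pnck 143 and 12.5 kb from Dusp9. Gk and Pola1 lie 415 and 7109 kb from Nr0b1. In the XO lines Pnck, a calmodulin-dependent kinase, was lower per copy than in XX Rnf12+/- by -1.32 in XCastO129 and -1.07 in X129OCast, Gk, glycerol kinase, by -0.99 and -0.66, and Pola1, a DNA polymerase subunit, by -0.38 and -0.46. None of the 6 was called between the XO lines. In X129OCast Zfp182 and Wdr44 were lower by -0.46 and -0.54, against -2.73 for Klhl13 between them. The 129 copy of Klhl13 gave only 21.6% and 21.2% of its allelic reads in XX Rnf12+/-, and its per copy value includes that imbalance.

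Other genes of the pathways in which the 3 genes act were counted by list. Of the 76 genes measured over all lists, edgeR called 0 in XX Rnf12+/- against XX wild type and 0 in deletion E against XX Rnf12+/-, comparisons in which only 0.00606% and 0.127% of all genes were called, shares at which lists of this size would mostly hold no call. At an unadjusted p under 0.05 there were 9 and 15 of the 76, against 8.1% and 11.1% of all genes. Of all genes, 15.1% were higher and 19.8% lower per copy in XCastO129 than in XX Rnf12+/-, and 20.1% and 26.5% in X129OCast. The median log2 difference of all genes was -0.077 in XCastO129 and -0.10 in X129OCast.

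Most genes of the list of NR0B1 partners and other pluripotency factors were lower in the XO lines. Of 13, 8 were lower and 1 higher in XCastO129, with a median log2 difference of -0.82, and 10 were lower and 1 higher in X129OCast, with a median of -0.93. Tbx3 fell by 1.82 and 2.29 on the log2 scale, Prdm14, a repressor that holds back differentiation, by 1.52 and 2.23, and Stat3, which carries the LIF signal, rose by 0.55 and 0.45. Between the XO lines 6 of the 13 were lower in X129OCast and none higher, with a median of -0.47. Nr5a2, which shares targets with Esrrb, was lower there by -0.86 (adjusted p = 0.0143) and Prdm14 by -0.70 (adjusted p = 0.0019). Over all genes 3.26% were lower and 3.21% higher in that comparison.

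The lists of the ERK pathway, on which DUSP9 acts, held calls in both directions. Counted over both directions, their shares were near or below those of all genes, which were 34.9% in XCastO129 and 46.7% in X129OCast. Nothing particular to the pathway is read from them. Of 9 other MAPK phosphatases, 1 was lower in XCastO129 (Dusp1, -0.72), and in X129OCast 2 were lower (Dusp1, -1.38, and Dusp4, -1.07) and 1 higher (Dusp7, 0.62). Of 19 genes of the FGF and ERK cascade, 6 were higher and 1 lower in XCastO129, and 5 higher and 3 lower in X129OCast. Among all genes fewer were higher than lower, 15.1% against 19.8% in XCastO129 and 20.1% against 26.5% in X129OCast. Whether this list differed from all genes in direction was not tested. The adaptor Shc1 was higher in both, by 0.81 and 0.64, and the kinase Map2k1 lower in both, by -0.31 and -0.27.

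Of 15 feedback and target genes of ERK, 3 were higher and 1 lower in XCastO129 and 4 higher and 2 lower in X129OCast. Etv4, a transcription factor induced by FGF, was higher by 0.88 and 1.48, and Egr1, an immediate early gene, was lower by -0.91 and -1.56. Egr1 was also lower in X129OCast than in XCastO129, by -0.65. The medians of this list were 0.13 in XCastO129 and -0.18 in X129OCast.

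Among 12 genes of the CUL3 ligase, its KLHL adaptors and a substrate, the list to which Klhl13 belongs by function, 2 were higher and 1 lower in XCastO129 and 4 higher and 3 lower in X129OCast. Cul3 itself was lower in both, by -0.64 and -0.65, and Klhl21, an adaptor used in mitosis as KLHL13 is, was higher, by 0.58 and 1.01. Of 9 measured X-linked genes of the same functions, 3 were higher and 2 lower per copy in each XO line. Eras, an mESC-specific Ras protein, was higher per copy by 1.26 and 0.69, and Tfe3, a transcription factor of the naive state, by 0.77 and 0.92. Of 9 genes of the 2-cell stage only 2 were measured, and 0 were called by edgeR.

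**Figure D5:**
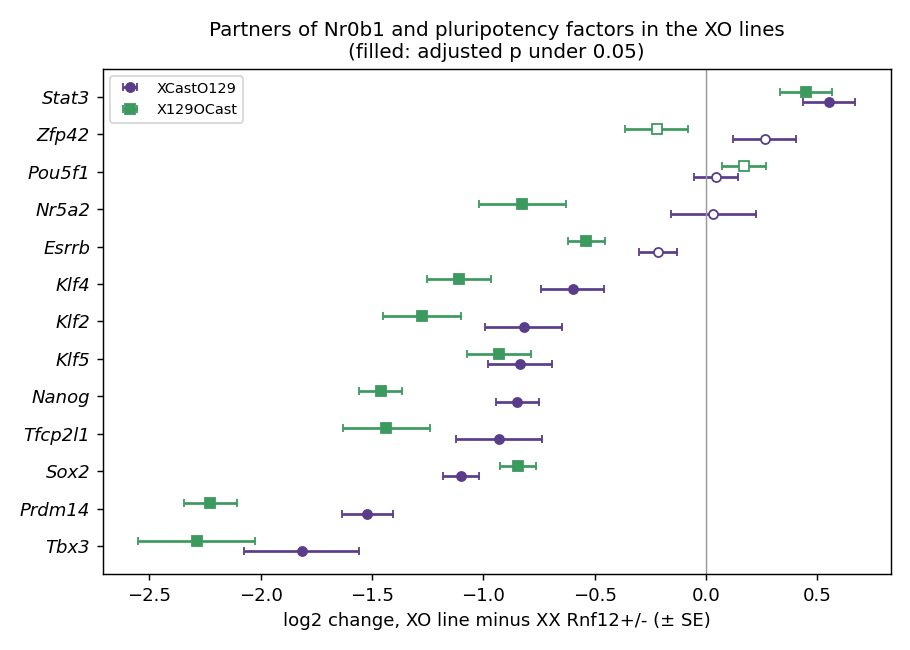
Log2 difference against XX Rnf12+/- (horizontal axis) of the 13 NR0B1 partners and other pluripotency factors, in XCastO129 and X129OCast; bars are ± 1 standard error. Prdm14 and Tbx3 lie lowest in both lines, and Stat3 lies above 0 in both.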

How the data were processed

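Reads had been trimmed (Trim Galore 0.6.7), aligned to a strain-masked mm10 genome (HISAT2 2.2.1) and split by allele. The authors deposited gene counts, without normalization, in 90 columns, 3 for each of 30 libraries (all reads, 129 reads, Cast reads). The submitters' processing notes name HTSeq 0.12.4 and the methods featureCounts, with counting by strand. Gene positions and exon lengths came from GENCODE M21, which matched 55240 of 55421 genes, and TPM were computed from the counts.

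Tests were edgeR 4.0.16 quasi-likelihood tests in R 4.3.3, two-sided, on all 30 libraries with 1 term per condition (28 with a Cast X chromosome for Cast counts), TMM factors of autosomal genes and, per copy, an offset for each gene's copy number. In total RNA, XX Rnf12+/- against XX wild type used its 4 libraries. Its Cast values came from the fit of 28 libraries, and its values of the 129 allele from a fit of 6, which included X129OCast. Benjamini-Hochberg adjustment ran over the genes with a mean TPM over 1 in XX Rnf12+/- (at least 20 Cast counts for Cast), with calls at 0.05. The steps were tested on simulated data. Shares have exact or Wilson bounds, and a count of 0 was given a limit of 3 counts. Replicates are clones or libraries of 1 line each, so p-values measure the spread between these samples, which may be technical. No 2 libraries held identical values (435 pairs).

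The members and lists were chosen with earlier results of these data known. Named genes are the members, the nearest expressed protein-coding gene on each side, the 3 genes most like each member by Pearson correlation, and up to 2 higher and 2 lower genes of each list per comparison. Cul3, Shc1 and the other list genes follow that rule. Alternatives covered the tool (DESeq2 1.42.0), normalization, filters, libraries fitted, reference, replicate block and leaving out each replicate. Fits of the 129 allele were added after seeing the data. Summaries and plots came from pandas 2.3.3, scipy 1.17.1, numpy 2.4.6 and matplotlib 3.10.9 under Python 3.11.15.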

Additional observations from a re-analysis of the deposited data

Results flagged for a closer look

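One result met a rule for a closer look. Against XX Rnf12+/-, the per copy level of Klhl13 moved in opposite directions in the 2 XO lines, 0.63 in XCastO129 and -2.73 in X129OCast, and the test of the difference itself gave a log2 of -3.36 (edgeR quasi-likelihood test, adjusted p = 3.32e-06), with 2 of 2 X129OCast libraries below 2 of 2 XCastO129 libraries. The value ran from -3.66 to -2.99 when 1 library was left out at a time. The XCastO129 value was not called, and against XX wild type it was -0.0075. Its Cast copy gave 395 and 666 allelic CPM against 577 and 435 in XX Rnf12+/-, with overlap. The 129 copy gave 39.3 and 51.9 in X129OCast against 136 and 110. The Cast share was 78.4% and 78.8% in XX Rnf12+/-. The -3.36 between the XO lines therefore includes an allele difference that XX cells have too, and the opposite signs are those of the per copy values. Outliers within a group could not be looked for, since no group had more than 2 libraries.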

How the results depend on the processing

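Depth limits the alleles most: Dusp9 had as few as 34 allelic reads in a library, and a line with 1 clone has no spread of its own. Of the values other than those that left out a replicate, 473 kept their direction and side of the threshold, 40 became calls, 17 lost a call and 19 reversed. Most of the reversed values were near 0, but some of Nr0b1 were not and were calls. Its Cast value in XCastO129 turned to 0.80 against XX wild type and to 0.75 with library size of all reads. Its per copy value in X129OCast turned to 0.55 against XX wild type. The cause of each change was not tested. The scaling alternatives moved the median log2 of all genes by at most 0.055, except library size of all reads, which moved Cast values by up to 0.868 and 129 values by up to 0.788.

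Replicate numbers shared by groups do not establish a pairing, since there are 2 libraries a group and clones elsewhere. With the replicate block, XX Rnf12+/- against XX wild type became a call for Klhl13 (-0.63, adjusted p = 8.03e-06) and Nr0b1 (0.72, adjusted p = 0.000126), Klhl13 in B lost its call against non-overlapping lines (1.13), and Dusp9 in C-G turned to -0.089.

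Without a filter on low values many values became calls at the same size. These were Klhl13 in XCastO129 (0.63 per copy, -0.37 total), in B (0.74), AB (0.93) and C-G (0.44 per copy, -0.56 total) against XX Rnf12+/-, and in AB (0.30 total, 0.64 Cast) and C-G (0.87) against other lines. They were also Dusp9 between XO lines (0.82), in C-G (-0.47 per copy, -0.97 total) and E (0.70 per copy, 0.95 Cast), and Nr0b1 between XO lines (-0.38) and in C-G (0.68 Cast). Lines that keep both copies were then called for Klhl13 in 6 (against XX Rnf12+/-) and 5 cases, and for Dusp9 in 5 and 9. The share of all genes called in these fits is not given here, so nothing about the genes is read from these counts.

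With XX wild type as the reference, Klhl13 gave -0.0075 per copy, -1.01 in total and -0.43 for Cast in XCastO129, -0.14 for Cast in AB, -0.19 per copy and -1.19 in total in C-G, and 6 called lines. In the lines that do not cover Klhl13, 826 (E) to 5617 (C) of 16493 genes were called against XX wild type. Dusp9 gave 0.64 per copy in X129OCast and 0.59 for Cast in XCastO129. Nr0b1 gave 0.93 per copy, -0.070 in total and 0.80 for Cast in XCastO129, 0.55 in X129OCast, 0.85, -0.15 and 0.64 in C-G, and 0.88, -0.12 and 0.63 in F.

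With library size of all reads, Cast values were 0.99 (Klhl13) and 0.75 (Nr0b1) in XCastO129, 0.021 and 0.018 for Klhl13 in B and C-G against XX Rnf12+/-, 0.053 for Dusp9 and 0.74 for Nr0b1 in C-G against other lines, and the 129 value of Nr0b1 in X129OCast was 1.01. DESeq2 gave 0.044 for the Cast copy of Klhl13 in B, 1.02 for that of Dusp9 in XCastO129, 0.71 for Nr0b1 in XX Rnf12+/- and -0.36 for Nr0b1 between XO lines, and its size factors gave 1.12 for Klhl13 in B, 0.044 for its Cast copy and 0.68 for the Cast copy of Nr0b1 in C-G. TMM of all genes and a TPM over 5 both gave -0.38 for Nr0b1 between XO lines. Fits of only the groups compared gave Dusp9 -1.06 (total) and 1.03 (Cast) in XCastO129, 0.76 in X129OCast, -1.48 and -0.98 (total) in C-G, and Nr0b1 -0.86 and 0.68 in C-G and -0.82 in F. All 30 libraries gave Nr0b1 0.70 in XX Rnf12+/-. Without J and I-TEL, Klhl13 was 1.22 in B and 0.12 (total) in C-G, Dusp9 -0.17 in C-G and Nr0b1 -0.35 (total) in F. If Klhl13 was counted as not covered by C-G, it was -0.56 and -0.13.

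Leaving out 1 replicate at a time gave these lowest and highest values where a call or a direction changed, against XX Rnf12+/- unless another reference is named. For Klhl13 they were -1.35 to -1.05 (XX Rnf12+/- against XX wild type, 129), 0.26 to 0.92 (XCastO129, per copy), -0.29 to 0.45 (XCastO129, Cast), 1.08 to 1.19 (B against other lines, per copy), -0.21 to 0.24 (B, Cast), 0.76 to 1.09 (AB, per copy), -0.24 to 0.087 (AB, total), 0.78 to 1.00 (C-G against other lines, per copy), -0.26 to 0.17 (C-G, Cast), 0 to 1 (called lines, XX Rnf12+/- as reference) and 1 to 2 (called lines, others as reference). For Dusp9 they were -0.73 to 0.41 (XX Rnf12+/- against XX wild type, total), -0.31 to 0.72 (the same for the 129 copy), -0.46 to 0.57 (XCastO129, per copy), -1.46 to -0.43 (XCastO129, total), 0.34 to 1.37 (X129OCast, per copy), -0.66 to 0.37 (X129OCast, total), 0.57 to 1.66 (XCastO129, Cast), 1.28 to 1.88 (X129OCast, 129), -0.91 to 0.12 (C-G, per copy), -0.022 to 0.075 (C-G against other lines, per copy), -1.91 to -0.88 (C-G, total), -0.67 to 0.44 (C-G, Cast), -0.065 to 0.079 (C-G against other lines, Cast), 0.26 to 1.29 (E, per copy), -0.74 to 0.29 (E, total), 0.51 to 1.62 (E, Cast), 0 to 5 (called lines, XX Rnf12+/- as reference) and 0 to 1 (called lines, others as reference). For Nr0b1 they were 0.54 to 0.76 (XX Rnf12+/- against XX wild type, 129), -0.46 to -0.30 (X129OCast against XCastO129), 0.66 to 0.71 (C-G against other lines, Cast) and 0.49 to 0.67 (F against other lines, Cast).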
